A study of Homo sapiens with 12 samples.

Results

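Glutamine enters metabolism through glutamate, and the nitrogen of glutamate is handed on by aminotransferases. Expression was examined for 9 genes of these steps, chosen by gene name from the 58721 genes of the deposited tables: GLUL, GLS2, GLUD1, OGDH, GPT, GPT2, BCAT1, BCAT2 and OAT. RNA-seq had been done on 2 human pancreatic cancer lines, Tu8902 (Pa-Tu-8902) and MiaPaCa2 (MIA PaCa-2), which both carried a doxycycline (dox)-inducible shRNA against the cytosolic aspartate aminotransferase GOT1. The groups were Pa-Tu-8902 without dox, Pa-Tu-8902 with dox, MIA PaCa-2 without dox and MIA PaCa-2 with dox, with 3 libraries each. Dox was in the medium for 5 days before RNA extraction, at 1 µM/mL as the labels write it. No group received dox without the GOT1 hairpin, so GOT1 loss and dox itself cannot be told apart. Nothing states that replicate libraries came from separate cultures, so p-values measure the spread between libraries, which may be technical. The comparisons ask how these enzymes change when GOT1 is lost, and how the lines differ before that.

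As background, glutamine synthetase (GLUL) makes glutamine from glutamate and ammonia, and the liver-type glutaminase (GLS2) runs the opposite step. Glutamate becomes 2-oxoglutarate either through glutamate dehydrogenase (GLUD1) or through aminotransferases, which pass its amino group to pyruvate (GPT, GPT2), exchange it with branched-chain amino acids (BCAT1, BCAT2) or link it to ornithine (OAT). The 2-oxoglutarate dehydrogenase subunit OGDH carries the product onward in the tricarboxylic acid cycle, and pancreatic cancer cells are known for drawing on glutamine carbon by the aminotransferase route.

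The sequences before the transcription starts of BCAT1 and GLUL are shown because these genes had the widest separation between the lines among the 9. Both come from RefSeq on GRCh38.p14, are written 5′ to 3′ on the minus strand, and cover 250 bases before the RefSeq start nearest to that of the first annotated isoform, at chr12:24949102-24949351 for BCAT1 and chr1:182391791-182392040 for GLUL. Windows were matched by symbol for 5 of the 9 genes (GLUL, GLUD1, OAT, BCAT1 and GLS2), and GPT, GPT2, BCAT2 and OGDH were not matched. Capitals mark the motif found in each.
BCAT1: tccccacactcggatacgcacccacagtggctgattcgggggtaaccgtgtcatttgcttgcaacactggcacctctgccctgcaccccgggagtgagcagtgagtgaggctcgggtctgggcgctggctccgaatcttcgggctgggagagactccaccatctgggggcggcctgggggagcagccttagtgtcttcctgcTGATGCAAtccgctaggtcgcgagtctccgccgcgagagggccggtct
GLUL: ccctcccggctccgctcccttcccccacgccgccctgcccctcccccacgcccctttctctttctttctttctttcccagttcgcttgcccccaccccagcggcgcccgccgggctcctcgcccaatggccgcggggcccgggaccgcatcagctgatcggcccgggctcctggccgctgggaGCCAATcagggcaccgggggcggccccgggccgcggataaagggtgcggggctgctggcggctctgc
The capitals in BCAT1 are TGATGCAA, at positions -48 to -41 with -1 the base next to the start, a match to TGATGNAA, the core of the element bound by ATF4 with C/EBP factors. TGATGNAA, searched on both strands, was present in 3.15% of the 35097 RefSeq windows of this length. The capitals in GLUL are GCCAAT, the CCAAT box motif, at positions -67 to -62, and OAT held the same letters at positions -75 to -70. GCCAAT was present on either strand in 13.8% of all windows. These shares are per window and not per gene. RefSeq gave 5 windows for BCAT1 and 2 for GLUL, and only the printed ones held the motif marked. The E-box CACGTG, present in 6.34% of all windows, was not among the letters of the windows of these 5 genes. The motifs do not overlap each other, were chosen after the sequences had been read, and describe letters only.

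Total counts per library ran from 26226537 to 43406137. GOT1, the gene targeted by the hairpin, fell by 4.64 on the log2 scale in Pa-Tu-8902 (SE 0.092, edgeR adjusted p = 1.51e-09) and fell by 4.76 in MIA PaCa-2 (SE 0.111, adjusted p = 1.06e-09). Lines were assigned by the deposited titles and cell line labels. A count table published with the study names the columns of 1 line, Pa-Tu-8902, over counts deposited as MIA PaCa-2, although the group means in that table follow the libraries deposited as Pa-Tu-8902. The deposited assignment was kept. As background, MIA PaCa-2 is known for very little E-cadherin (CDH1). All 5 epithelial markers averaged at least 1 TPM (a level per transcript length and library size) in Pa-Tu-8902 and 3 of 5 did in MIA PaCa-2, where CDH1 and EPCAM did not. Acinar and hepatocyte markers summed to at most 0.87 TPM and leukocyte markers to at most 4.36 TPM in any library, while the 4 fibroblast markers, of which only 1 averaged at least 1 TPM in each group, summed to 3.76 to 6.31 TPM in untreated and 17.6 to 21.3 TPM in dox-treated Pa-Tu-8902. The same sums for MIA PaCa-2 were 192 to 248 and 340 to 398 TPM. In each line nearly all of the sum was 1 collagen gene. It was COL1A1 in Pa-Tu-8902 (mean 4.5 TPM without and 19.6 with dox) and COL1A2 in MIA PaCa-2 (226 and 372 TPM). The fibroblast markers DCN and LUM averaged at most 0.0533 TPM in any group. The part of these markers in the results was not tested. In bulk libraries, fewer expressing cells and less RNA per cell cannot be told apart.

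Per transcript length, the lines put different genes first. In untreated Pa-Tu-8902, GLUL led at 247 ± 10.8 TPM (mean ± SD, n = 3), followed by GLUD1 at 105 ± 2.31, OGDH at 97.2 ± 2.05 and OAT at 94.7 ± 3.57 TPM. OGDH and OAT overlapped between libraries, and every other neighbouring pair in this order was separate. GPT2 followed at 33.9 ± 1.11 TPM and BCAT2 at 11.5 ± 1.06 TPM, with GPT (0.227 ± 0.155 TPM), BCAT1 (0.01 TPM in each library) and GLS2 (0 in each library) at the bottom. The first rank of GLUL in Pa-Tu-8902 holds for all its isoforms together. Its coding isoform GLUL-202 took 13.7 ± 3.10% of GLUL TPM without dox and 16.9 ± 2.24% with dox. In normalized counts, OGDH averaged 8727 and GLUL 7206 in untreated Pa-Tu-8902. In untreated MIA PaCa-2, OAT led at 151 ± 5.57 TPM, followed by GLUD1 at 119 ± 16.6, BCAT2 at 73.5 ± 0.269, OGDH at 72.0 ± 9.62 and GPT2 at 22.9 ± 2.00 TPM. BCAT2 and OGDH overlapped there, as did GLUL (1.12 ± 0.315 TPM) and BCAT1 (0.977 ± 0.393 TPM). GPT was at 0.217 ± 0.0862 TPM and GLS2 at 0. With dox, GLUL was again first in Pa-Tu-8902, and GLUD1 (79.8 ± 2.89 TPM) then stood below OAT (104 ± 1.78 TPM) and OGDH (93.2 ± 0.0833 TPM) with no overlap. In MIA PaCa-2 with dox the order of the 9 means was that of the untreated cells, with BCAT2 (101 ± 2.39 TPM) now separate from OGDH (65.9 ± 5.44 TPM).

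**Figure D1:**
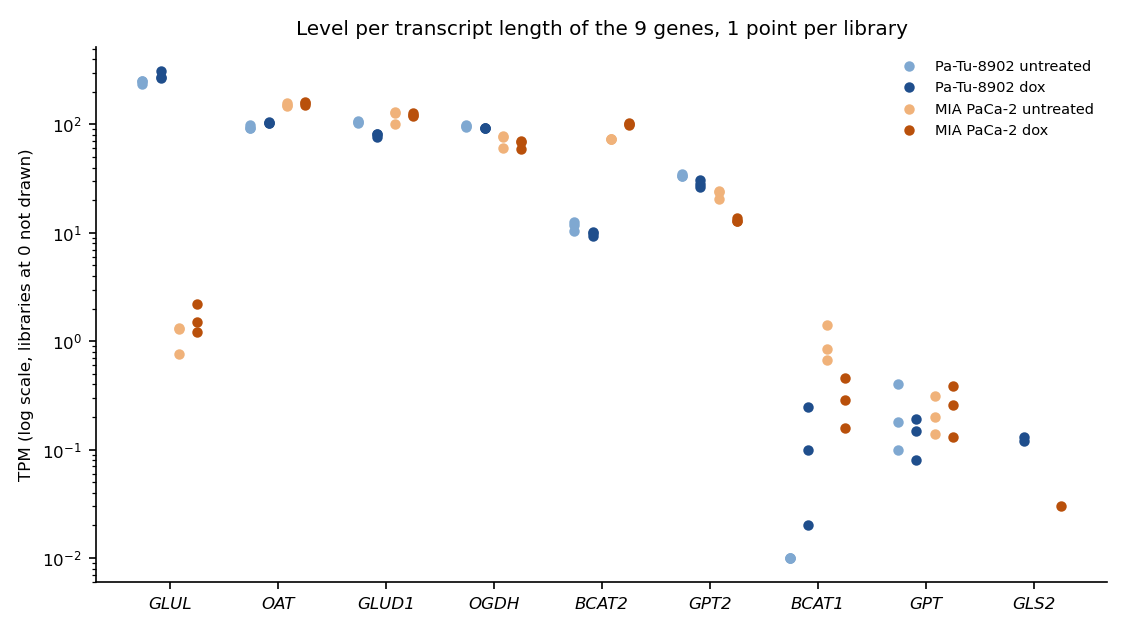
TPM on a log axis for the 9 genes, 1 point per library, with Pa-Tu-8902 in blue and MIA PaCa-2 in orange and dox-treated libraries in the darker shade; libraries at 0 are not drawn. GLUL, with all isoforms together, stands between 234 and 309 TPM in the Pa-Tu-8902 libraries and between 0.76 and 2.19 TPM in the MIA PaCa-2 libraries.

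A gene was called when its adjusted p was below 0.01 and its fold change at least 1.5 either way, in edgeR's quasi-likelihood test over every gene that reached 10 counts in 3 or more libraries. Between the untreated lines, 4 of the 7 genes tested were called, GLUL higher in Pa-Tu-8902 and BCAT1, BCAT2 and OAT higher in MIA PaCa-2, against 58.1% of all genes called. All 7 had normalized counts that did not overlap between the lines (81.7% of all genes), 6 also in TPM, and 6 passed the adjusted p alone (72.9%). BCAT1 entered this comparison only through MIA PaCa-2, with 75 to 102 expected counts there and 1 to 3 in Pa-Tu-8902. Its place in these counts therefore follows in part from the filter. With dox in Pa-Tu-8902, 0 of 6 tested were called by edgeR, DESeq2 or limma, where 16.3% of all genes were called by edgeR. In the same comparison 5 had an unadjusted p below 0.05 (56.6% of all genes), 2 passed the adjusted p without the fold limit (GLUD1 and GPT2, against 38.1% of all genes), and 4 had normalized counts that did not overlap (58.5%), where in TPM all 6 were apart. With dox in MIA PaCa-2, BCAT1 and GPT2 fell and 0 rose among 7 tested, so that 2 were called against 12% of all genes. There, 3 passed the adjusted p alone (BCAT1, GPT2 and BCAT2, against 27.2%), and 5 had normalized counts that did not overlap (52.9%), where in TPM 3 were apart. The share of all genes apart in TPM was not computed, so the members' TPM counts in these comparisons have no background and are a description only. The median log2 change with dox of the tested members was -0.22 in Pa-Tu-8902 (0.00142 over all genes) and -0.03 in MIA PaCa-2 (-0.00891 over all genes).

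**Figure D2:**
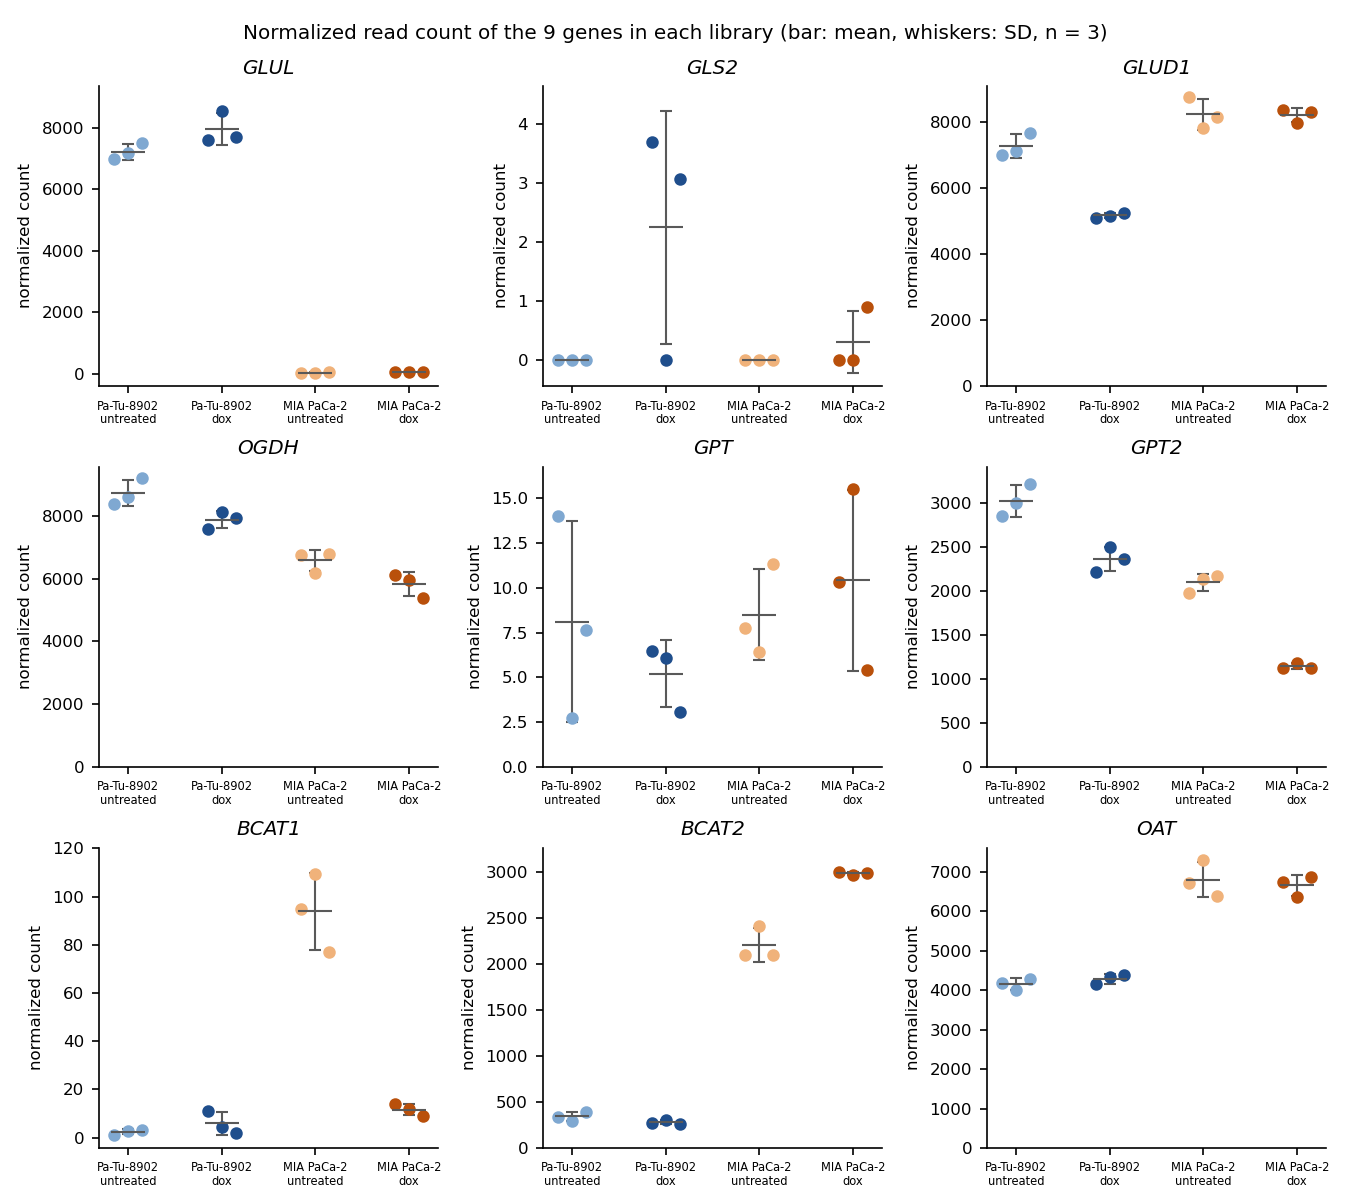
Normalized read counts of each gene in the 12 libraries, with the mean as a bar and the SD as whiskers (n = 3); each panel has its own linear axis. GLUD1 is lower with dox in the Pa-Tu-8902 libraries and overlaps in MIA PaCa-2, GPT2 is lower in both lines, and in MIA PaCa-2 the BCAT1 points are lower and the BCAT2 points higher with dox.

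GLUL (ENSG00000135821, chr1:182378098-182392206) separated the lines most among the tested members. Its normalized counts, scaled alike over all 12 libraries, were 6966, 7160 and 7493 in untreated Pa-Tu-8902 and 30.0, 38.6 and 41.2 in untreated MIA PaCa-2. The lowest Pa-Tu-8902 library was therefore far above the highest MIA PaCa-2 library, and the difference was 7.60 on the log2 scale (SE 0.108, edgeR adjusted p = 5.79e-15). With dox, the counts were 7601, 8552 and 7703 in Pa-Tu-8902, all above the untreated libraries, and the log2 change was 0.14 (95% interval 0.02 to 0.27, edgeR adjusted p = 0.0513), which was not called. In MIA PaCa-2 with dox they were 49.4, 59.7 and 55.1, again above every untreated library, with a log2 change of 0.58 (interval 0.10 to 1.07, adjusted p = 0.0539), also not called. In TPM the MIA PaCa-2 libraries ran from 0.76 to 1.32 without dox and from 1.23 to 2.19 with dox, and these ranges overlapped. The processed copy GLULP4 held at most 3 counts, which in MIA PaCa-2 made up to 6.98% of the reads shared out between GLUL and its copies.

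GLS2 (ENSG00000135423, chr12:56470944-56488414) was near the limit of detection. Its expected counts were 0 in all 6 untreated libraries, which allows up to 3 counts per library, or 0.0826 to 0.105 CPM (counts scaled to the library total) at these depths. With dox, 4, 0 and 3 counts were found in Pa-Tu-8902 and 0, 0 and 1 in MIA PaCa-2. The 7 counts of dox-treated Pa-Tu-8902 against 0 gave an exact 95% lower limit of 1.28 for the ratio per total count, which covers counting error only. RSEM placed them on retained-intron or nonsense-mediated decay isoforms (GLS2-202, GLS2-205 and GLS2-207). GLS2 was too low to be tested.

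GLUD1 (ENSG00000148672, chr10:87050202-87094843), the mitochondrial enzyme that releases ammonia from glutamate, was lower with dox in Pa-Tu-8902. Its normalized counts were 7010, 7128 and 7669 without dox and 5099, 5158 and 5248 with dox. The groups were well separated, and the log2 change was -0.49 (SE 0.048, interval -0.60 to -0.38, edgeR adjusted p = 1.22e-05), which passed the adjusted p and missed the 1.5-fold limit. In MIA PaCa-2 the counts were 8744, 7813 and 8143 without dox and 8349, 7974 and 8314 with dox. These groups overlapped throughout, with a log2 change of -0.00075 (interval -0.14 to 0.14, adjusted p = 0.993). The test of the difference between these responses gave -0.49 (SE 0.082, adjusted p = 0.000247), past the adjusted p and short of the fold limit. Normalized counts of the untreated lines did not overlap, and Pa-Tu-8902 stood 0.20 lower on the log2 scale (interval -0.35 to -0.04, adjusted p = 0.0211), which was not called. In TPM the untreated lines overlapped, at 103 to 108 in Pa-Tu-8902 against 99.96 to 130 in MIA PaCa-2, and leaving out 1 library moved the log2 difference between -0.28 and -0.08. Between 0.231% and 0.550% of the reads on GLUD1 and its near-identical copies were placed on the copies, mostly GLUD2 and GLUD1P3, and that division is RSEM's estimate.

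OGDH (ENSG00000105953, chr7:44606572-44709066) was slightly lower with dox in both lines, without a call. In Pa-Tu-8902 its normalized counts were 8375, 8611 and 9195 without dox and 7578, 8125 and 7923 with dox. The log2 change of -0.15 (interval -0.26 to -0.04, edgeR adjusted p = 0.0315) was not called, although the libraries did not overlap. In MIA PaCa-2 the counts were 6753, 6187 and 6786 without dox and 6126, 5953 and 5391 with dox. The change of -0.17 (interval -0.32 to -0.02, adjusted p = 0.0624) was not called either, and the libraries were again separate in normalized counts. In TPM the MIA PaCa-2 libraries overlapped, at 60.9 to 77.8 without and 59.7 to 69.8 with dox. Limma on log2(TPM + 0.5) gave -0.06 in Pa-Tu-8902 (adjusted p = 0.285) and -0.12 in MIA PaCa-2 (adjusted p = 0.430). The difference between the responses was 0.03 (interval -0.16 to 0.22). Untreated Pa-Tu-8902 stood 0.39 above untreated MIA PaCa-2 (interval 0.24 to 0.54, adjusted p = 0.000176), below the fold limit.

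GPT2 (ENSG00000166123, chr16:46884362-46931289), the mitochondrial alanine aminotransferase, was lower with dox in both lines and was called in MIA PaCa-2. In MIA PaCa-2 its normalized counts were 1984, 2140 and 2173 without dox and 1124, 1182 and 1130 with dox. The dox libraries lay together below every untreated one, and GPT2 fell by 0.87 on the log2 scale (SE 0.065, interval -1.01 to -0.73, edgeR adjusted p = 1.85e-06), a 1.83-fold decrease. In Pa-Tu-8902 the counts were 2854, 3001 and 3215 without dox and 2222, 2499 and 2370 with dox. These libraries did not overlap either, and the log2 change was -0.35 (SE 0.059, interval -0.48 to -0.22, adjusted p = 0.000559), past the adjusted p and short of the fold limit. The Pa-Tu-8902 response minus the MIA PaCa-2 response was 0.52 (SE 0.091, adjusted p = 0.000368), also short of the fold limit. Untreated Pa-Tu-8902 stood 0.51 higher than untreated MIA PaCa-2 (interval 0.36 to 0.66, adjusted p = 1.38e-05) and missed the fold limit, but GPT2 was called there when Pa-Tu-8902 untreated replicate 1 or replicate 2 was left out (0.64 and 0.60).

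GPT (ENSG00000167701), the other alanine aminotransferase, was barely present. Its expected counts summed over 3 libraries to 22 in untreated and 18 in dox-treated Pa-Tu-8902, and to 25 in untreated and 28 in dox-treated MIA PaCa-2. The ratio per total count of dox-treated to untreated libraries was 0.726 (exact 95% interval 0.367 to 1.42) for Pa-Tu-8902 libraries and 1.18 (0.664 to 2.11) for those of MIA PaCa-2, and that of untreated MIA PaCa-2 to untreated Pa-Tu-8902 was 1.19 (0.642 to 2.21), so no difference was detectable at this depth. The mean log2 ratio of GPT2 to GPT in TPM was 7.46 ± 1.02 in untreated Pa-Tu-8902 and 6.80 ± 0.457 in untreated MIA PaCa-2 (SD, n = 3, two-sided exact permutation p = 0.4). With dox it shifted by 0.30 in Pa-Tu-8902 (exact permutation p = 0.8) and by -1.001 in MIA PaCa-2 (exact permutation p = 0.2), in a design in which p cannot go below 0.1.

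BCAT1 (ENSG00000060982, chr12:24810024-24949101), the cytosolic branched-chain aminotransferase, was a low gene of MIA PaCa-2 that fell with dox. Its normalized counts there were 94.9, 109 and 77.2 without dox and 13.8, 11.9 and 9.04 with dox. No dox library came near an untreated one, and BCAT1 fell by 3.02 on the log2 scale (SE 0.263, interval -3.60 to -2.44, edgeR adjusted p = 6.01e-06). Summed expected counts were 275 without and 32 with dox, a ratio of 0.123 (exact 95% interval 0.0823 to 0.177, counting error only). TPM of the whole gene differed less, at 0.67, 1.42 and 0.84 without dox and 0.46, 0.29 and 0.16 with dox. RSEM placed much of that TPM on the short isoforms BCAT1-209 and BCAT1-210, except in untreated replicate 1, where both were at 0 TPM. These isoforms took between 0 and 14.9% and between 0 and 29.8% of BCAT1 counts in the MIA PaCa-2 libraries. The main coding isoform BCAT1-201 alone, a reading added after the values were seen, was at 0.38, 0.35 and 0.29 TPM without dox and 0.03, 0.04 and 0.03 TPM with dox. The call did not hold with effective lengths as offsets (log2 change -1.87, adjusted p = 0.0112) or in limma on log2(TPM + 0.5) (-0.86, adjusted p = 0.0156). The cause of these losses was not tested.

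In Pa-Tu-8902, BCAT1 was at 1, 3 and 3 expected counts without dox and at 12, 6 and 2 with dox, and was not tested. The ratio of the summed counts, 20 with and 7 without dox, was 2.54 per total count (exact 95% interval 1.03 to 7.10), and the libraries overlapped. Against untreated Pa-Tu-8902, untreated MIA PaCa-2 held 41.0 times the BCAT1 counts (exact 95% interval 19.6 to 103), and BCAT1 was called in that comparison (edgeR adjusted p = 1.66e-08). It was not tested there when any untreated MIA PaCa-2 library was left out, since only 2 libraries then reached 10 counts.

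BCAT2 (ENSG00000105552, chr19:48795062-48811029), the mitochondrial counterpart, stood higher with dox in MIA PaCa-2. Its normalized counts there were 2093, 2418 and 2102 without dox and 3003, 2969 and 2989 with dox. Every dox library was above every untreated one, and the log2 change was 0.44 (SE 0.069, interval 0.29 to 0.59, edgeR adjusted p = 0.000417), past the adjusted p and short of the fold limit. In Pa-Tu-8902 the counts were 334, 296 and 395 without dox and 275, 300 and 258 with dox. The groups overlapped, with a log2 change of -0.29 (interval -0.55 to -0.03, adjusted p = 0.0574). Untreated MIA PaCa-2 stood above untreated Pa-Tu-8902 by 6.54-fold (log2 difference -2.71 for Pa-Tu-8902 minus MIA PaCa-2, SE 0.102, adjusted p = 2.79e-11). The mean log2 ratio of BCAT1 to BCAT2 in TPM in MIA PaCa-2 was -6.31 ± 0.551 without dox and -8.51 ± 0.730 with dox (SD, n = 3), a shift of -2.20 with a two-sided exact permutation p of 0.1, the smallest this design allows. This ratio was not formed in Pa-Tu-8902, where BCAT1 had 1 to 3 counts per untreated library.

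**Figure D3:**
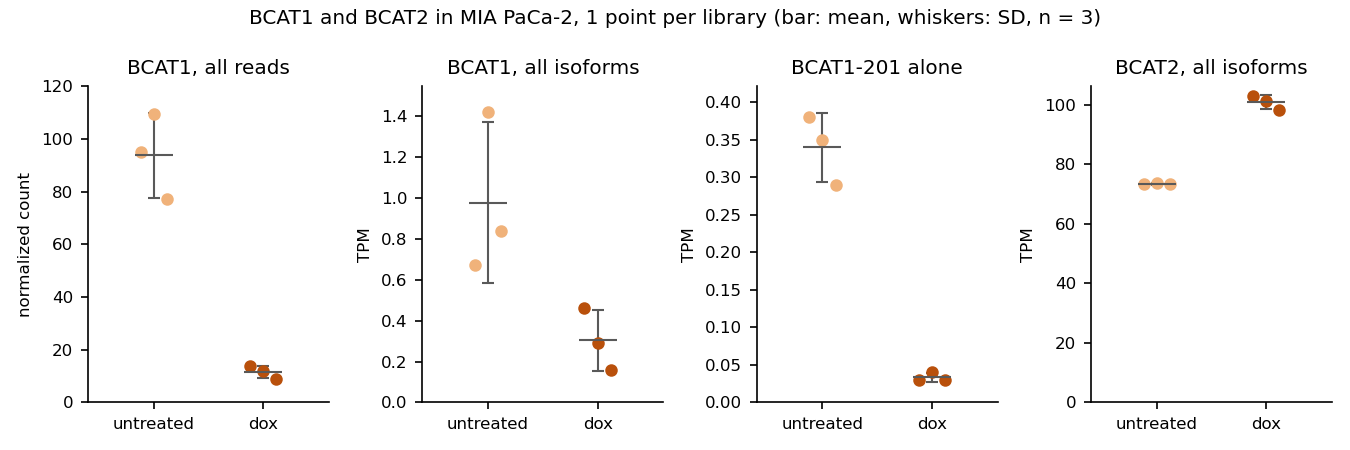
BCAT1 and BCAT2 in MIA PaCa-2 without and with dox, 1 point per library, bar for the mean and whiskers for the SD (n = 3), on linear axes. BCAT1 normalized counts go from between 77.2 and 109 to between 9.04 and 13.8, BCAT1-201 from between 0.29 and 0.38 TPM to 0.03 or 0.04 TPM, and BCAT2 from 73.3 to 73.8 TPM up to between 98.4 and 103 TPM.

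OAT (ENSG00000065154, chr10:124397303-124418976), the mitochondrial ornithine aminotransferase, differed between the lines and was not called with dox. Its normalized counts were 4196, 4000 and 4281 in untreated Pa-Tu-8902 and 6728, 7301 and 6405 in untreated MIA PaCa-2. The lines did not overlap, and the log2 difference was -0.73 for Pa-Tu-8902 minus MIA PaCa-2 (SE 0.069, edgeR adjusted p = 4.23e-07), a 1.66-fold higher level in MIA PaCa-2. With dox the counts were 4152, 4340 and 4383 in Pa-Tu-8902, overlapping the untreated libraries, with a log2 change of 0.05 (interval -0.06 to 0.15, adjusted p = 0.432). In TPM the same libraries were apart, at 92.1 to 98.7 without and 103 to 106 with dox, with a change of 0.13 in limma on log2(TPM + 0.5) (adjusted p = 0.0465), also not called. In MIA PaCa-2 they were 6758, 6369 and 6881, again overlapping, with a change of -0.03 (interval -0.17 to 0.12, adjusted p = 0.767). The difference between the responses was 0.08 (interval -0.10 to 0.25).

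**Figure D4:**
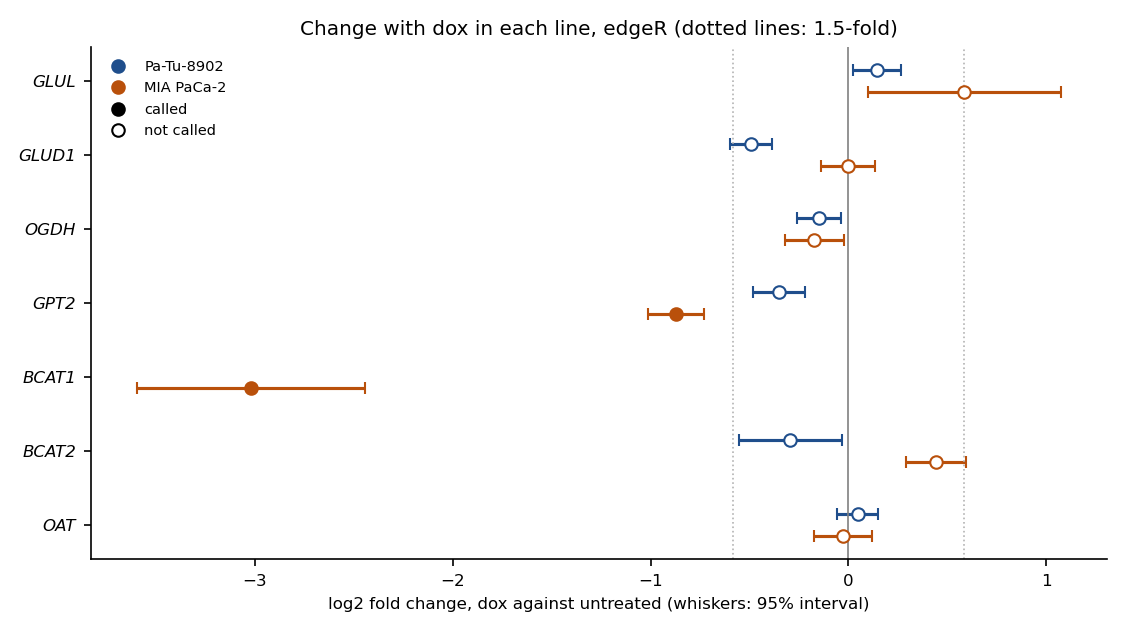
The log2 fold change with dox and its 95% interval for each tested gene in Pa-Tu-8902 (blue) and MIA PaCa-2 (orange); filled points were called and dotted lines mark 1.5-fold. The filled points are BCAT1 at -3.02 and GPT2 at -0.87, both in MIA PaCa-2.

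The responses of the lines were tested against each other over 12 libraries. Of 8 members tested, 2 were called, against 10.4% of all genes, and 4 passed the adjusted p alone, against 16.9%. BCAT2 was called with a Pa-Tu-8902 response 0.73 lower than that of MIA PaCa-2 on the log2 scale (SE 0.129, edgeR adjusted p = 0.000393), the counts being lower on average with dox in one line and higher in the other. BCAT1 was called at 4.26 (SE 0.716, adjusted p = 0.000255), a fitted size that rests on Pa-Tu-8902 libraries of 1 to 12 counts, and 1 member was called in limma on log2(TPM + 0.5) and with a filter of 10 counts in every library, where BCAT1 was not tested. GLUL differed by -0.44 (interval -0.81 to -0.07, adjusted p = 0.0739) and GPT by -0.80 (interval -2.48 to 0.88, adjusted p = 0.511), and neither was called.

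Isoform assignments were compared for members with at least 100 counts in every library fitted, a limit set after the counts were seen. A single coding isoform held most of the TPM of GLUD1 (GLUD1-201, 94.4% to 99.6%), OAT (OAT-201, 93.1% to 97.6%) and GPT2 (GPT2-201, 85.5% to 96.4%). In MIA PaCa-2, BCAT2-201 took 53.3 ± 6.67% of BCAT2 TPM without dox and 63.2 ± 1.67% with dox (SD, n = 3), with no overlap (two-sided exact permutation p = 0.1, the smallest possible). BCAT2-203 was at 38.3 ± 7.48% and 28.3 ± 2.52% (exact permutation p = 0.1), and in Pa-Tu-8902 both isoforms overlapped between groups. OGDH-201 was at 79.3 ± 1.55% and 81.7 ± 0.878% of OGDH TPM in MIA PaCa-2 (exact permutation p = 0.1). Most of the GLUL TPM in Pa-Tu-8902 was placed on processed transcripts, GLUL-205 with 47.6 ± 1.08% without and 51.6 ± 1.96% with dox (exact permutation p = 0.1), while the coding isoform GLUL-202 took 13.7 ± 3.10% and 16.9 ± 2.24% of TPM (exact permutation p = 0.3). In counts rather than TPM, GLUL-202 held 37.1% to 54.8% of GLUL reads without dox and 54.1% to 66.1% with dox.

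The surrounding pathways were described with 7 gene lists. Of the other aminotransferases, GOT1 and KYAT1, which also cleaves cysteine conjugates, fell in both lines and 0 rose. GOT1 is the target of the hairpin, so its fall was set by the design. For this list 6 genes were tested in Pa-Tu-8902, and 8 were tested for MIA PaCa-2. KYAT1 fell by 1.05 in Pa-Tu-8902 (SE 0.099, edgeR adjusted p = 9.52e-06) and by 0.86 in MIA PaCa-2 (SE 0.155, adjusted p = 0.00107), the latter change being -0.27 with effective lengths as offsets and then not called. In limma on log2(TPM + 0.5) the MIA PaCa-2 change was -0.20 (adjusted p = 0.584), also not called. The serine pathway aminotransferase PSAT1 averaged 6.65 normalized counts in untreated Pa-Tu-8902 and 5211 in untreated MIA PaCa-2.

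Enzymes that take the amide nitrogen of glutamine were mixed. Of 10 tested in Pa-Tu-8902, GFPT2 rose by 1.46 (SE 0.127, edgeR adjusted p = 5.33e-06) while asparagine synthetase ASNS fell by 1.11 (SE 0.054, adjusted p = 9.61e-08) and GFPT1 fell by 0.67 (SE 0.048, adjusted p = 1.36e-06), the last at -0.58 and short of the fold limit in limma on log2(TPM + 0.5). GFPT1 and GFPT2 both start hexosamine synthesis. In MIA PaCa-2, 1 of 10 was called, GFPT1, which fell by 1.01 (SE 0.066, adjusted p = 6.92e-07).

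Among 21 enzymes of branched-chain amino acid breakdown downstream of BCAT1 and BCAT2, 1 rose in Pa-Tu-8902, ALDH6A1 by 0.81 (SE 0.119, edgeR adjusted p = 0.000208), and 0 fell. In MIA PaCa-2, 1 rose, the branched-chain keto acid dehydrogenase subunit BCKDHA by 0.62 (SE 0.097, adjusted p = 0.000408), and 4 fell, PCCA by 0.79 (SE 0.127, adjusted p = 0.000495), AUH by 0.75 (SE 0.086, adjusted p = 4.61e-05), DBT and HIBCH. BCKDHA was at 0.50, short of the fold limit, without MIA PaCa-2 untreated replicate 2, and its adjusted p was 0.0108 in limma on log2(TPM + 0.5). PCCA was not called with effective lengths as offsets (-0.65, adjusted p = 0.0272) or in limma (-0.57, adjusted p = 0.0520). The median log2 change of the list was -0.12 in MIA PaCa-2, while it was 0.098 for Pa-Tu-8902, and the test between the lines called 6 of 21, each with the more positive response in Pa-Tu-8902. That test called 6.56% of all genes in this direction.

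Of the enzymes around 2-oxoglutarate, 3 rose in Pa-Tu-8902 among 12 tested, IDH2 by 1.05 (SE 0.082, edgeR adjusted p = 2.54e-06), IDH1 by 0.85 (SE 0.066, adjusted p = 2.39e-06) and DHTKD1. In the same line IDH3A fell by 1.20 (SE 0.050, adjusted p = 3.85e-08) and DLD, the subunit that OGDH shares with other dehydrogenases, fell by 1.09 (SE 0.048, adjusted p = 4.52e-08). In MIA PaCa-2, 0 of 13 rose and 4 fell, DLD by 1.12 (SE 0.065, adjusted p = 3.22e-07), SUCLA2 by 0.97 (SE 0.075, adjusted p = 2.41e-06), IDH3A and OGDHL. OGDHL, the OGDH-like paralog, averaged 0.726 normalized counts in untreated Pa-Tu-8902 and 513 in untreated MIA PaCa-2.

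Of 11 carriers tested, 2 fell in MIA PaCa-2, while 3 fell in Pa-Tu-8902, with 0 rising in either line. The glutamine carrier SLC38A1 fell by 0.89 (SE 0.047, edgeR adjusted p = 1.79e-07) and 0.97 (SE 0.068, adjusted p = 1.25e-06), and the cystine-glutamate exchanger SLC7A11 fell by 0.73 (SE 0.063, adjusted p = 5.46e-06) and 1.45 (SE 0.140, adjusted p = 1.25e-05), in Pa-Tu-8902 and MIA PaCa-2 respectively. The third carrier called in Pa-Tu-8902 was SLC1A5. Around OAT, ARG2 rose in Pa-Tu-8902 among 7 proline and ornithine enzymes tested and PRODH fell in MIA PaCa-2 among 8. Of 3 genes acting beside GLS2 and GLUD1, SIRT4, a mitochondrial sirtuin acting on GLUD1, rose in Pa-Tu-8902 and 0 were called in MIA PaCa-2. Genes given here without values were DBT, HIBCH, IDH3A, OGDHL and PRODH in MIA PaCa-2, and DHTKD1, SLC1A5, ARG2 and SIRT4 in Pa-Tu-8902. They lay outside the rule for named genes and were chosen after their values were seen. In limma on log2(TPM + 0.5), DBT, HIBCH, IDH3A, OGDHL and PRODH in MIA PaCa-2 and SLC1A5 in Pa-Tu-8902 were not called, and OGDHL and PRODH were not called with effective lengths as offsets either. The call was also lost for HIBCH without MIA PaCa-2 untreated replicate 2, for OGDHL without MIA PaCa-2 dox replicate 3, and for SLC1A5 without Pa-Tu-8902 untreated replicate 3 or dox replicate 1.

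**Figure D5:**
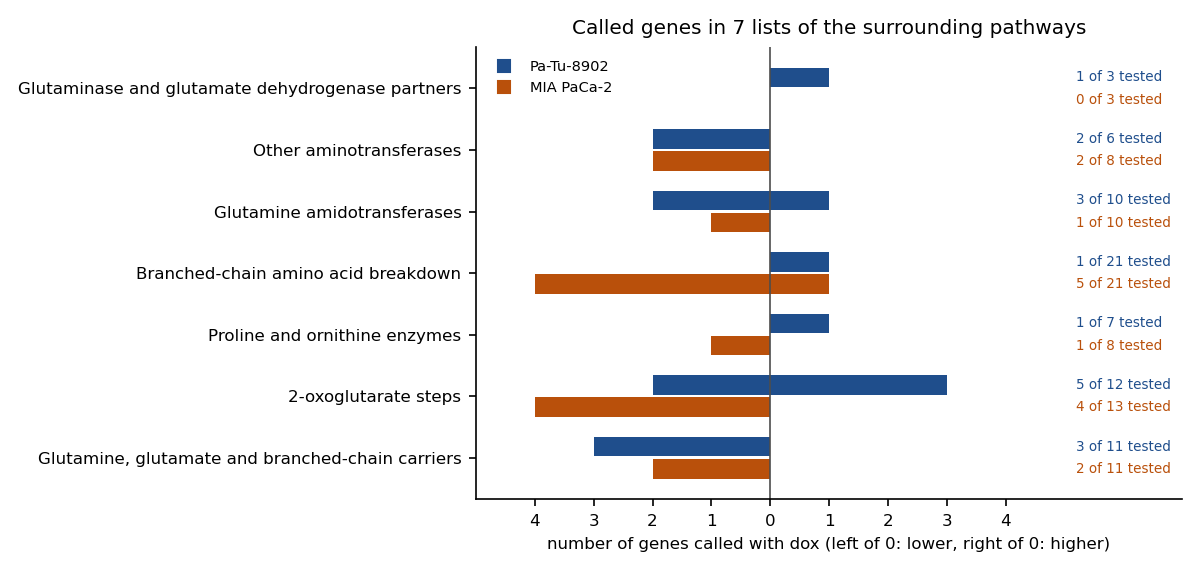
Number of genes called with dox in each of 7 lists, lower to the left of 0 and higher to the right, in Pa-Tu-8902 (blue) and MIA PaCa-2 (orange), with the number called of those tested at the right. In branched-chain amino acid breakdown the blue bar extends only to the right, with 1 gene, and the orange bar mostly to the left, with 4 genes. The bars of the other aminotransferases include GOT1, the target of the hairpin. Of all genes, 9.22% were called higher and 7.12% lower in Pa-Tu-8902, and 4.36% and 7.64% in MIA PaCa-2.

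The genes most like each member over the 12 libraries, by Pearson r of log2 normalized counts, were found among 16544 genes. They were SPINT1, MMP14 and PLS1 for GLUL (r from 0.999 to 1.00), THOC3, PRPS1 and TRIP6 for BCAT2 (0.997 to 0.998), CNIH4, BET1 and RAD51B for OAT (0.995 to 0.996), and GSTK1, HIST1H2BJ and ADGRB2 for BCAT1 (0.966 to 0.973). For GPT2 they were HOXB6, ITGA3 and CDKN2D (0.989), for GLUD1 NSMAF, PRMT3 and FLNA (0.986 to 0.990), for OGDH MATN3, ERGIC1 and POLR3C (0.983 to 0.988), and for GPT AC021242.3, BOC and PRR5L (0.80 to 0.85). The libraries form 2 sets by line, so any gene that differs between the lines in the same direction has a high r, and these values are a description.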

How the data were processed

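Poly(A) RNA libraries were strand-specific and paired-end. Per the labels and the submitters' processing notes, the authors trimmed reads with Trimmomatic 0.39, aligned them to hg38 with STAR 2.5.2a and deposited RSEM 1.3.1 expected counts and TPM per gene and isoform. RSEM divides reads among similar genes and isoforms by estimate, so 5.34% of the expected counts were not whole; they were rounded for testing.

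Tests used edgeR 4.0.16 (R 4.3.3), quasi-likelihood, TMM scaling, genes reaching 10 counts in 3 or more of the libraries fitted, and Benjamini-Hochberg adjustment over all genes tested. Calls needed an adjusted p below 0.01 and 1.5-fold. Each line was fitted on its 6 libraries, the baseline on the 6 untreated libraries, and the difference of responses on 12. The fits were tested on simulated data. Printed normalized counts share 1 TMM scale over 12 libraries. Isoenzyme ratios and isoform shares used TPM and two-sided exact permutation tests. Intervals for low counts are exact at 95% and cover counting error only. Positions are from GENCODE v44 on GRCh38, and counting used an earlier release of the same build.

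Named genes were all 9 members, GOT1, and from each list called genes averaging 100 normalized counts or more, up to 2 rises and 2 falls per comparison; also the 3 genes most alike to each member, and copies of members. The 9 genes and the lists were chosen with earlier results of these data known. One gene of a pathway list is not reported here and was left out of that list. Alternatives were DESeq2 1.42.0, its size factors, other filters and thresholds, effective-length offsets, limma 3.58.1 on log2(TPM + 0.5), a replicate block, 1 fit of 12 libraries, and leaving out each library.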

Additional observations from a re-analysis of the deposited data

Results flagged for a closer look

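The dox response differed between the lines, by the test of the difference over 12 libraries, for 18 of the genes examined, which are 2 of the 8 members tested and 16 genes of the pathway lists (log2, Pa-Tu-8902 response minus MIA PaCa-2 response, edgeR). Among all genes, 10.4% were called in this test. The more positive response was in Pa-Tu-8902 for 6.56% and in MIA PaCa-2 for 3.86%. Tested from the lists were 3 genes beside GLS2 and GLUD1, 8 other aminotransferases, 10 users of glutamine amide nitrogen and 21 of branched-chain breakdown. The rest were 8 proline and ornithine enzymes, 13 genes around 2-oxoglutarate and 11 carriers. BCAT1 differed by 4.26, resting on Pa-Tu-8902 libraries of 1 to 12 counts, and BCAT2 by -0.73. Beyond the members, IDH1 differed by 1.42 and IDH2 by 1.35, both of which averaged higher with dox in Pa-Tu-8902 (3260 to 5880 and 1267 to 2627 normalized counts) and lower in MIA PaCa-2 (2100 to 1415 and 2654 to 2162). SUCLA2 differed by 1.08, GFPT2 by 1.14, SLC7A11 by 0.73 and SLC38A2 by 0.63, with the more positive response in Pa-Tu-8902. The same direction was found in branched-chain amino acid breakdown for PCCA (0.87), ALDH6A1 (0.84), DBT (0.81), BCKDHB (0.77), HIBCH (0.72) and AUH (0.68). SIRT4 differed by 1.31, with 14 to 16 counts in untreated Pa-Tu-8902, and PRODH by 4.16, with 0 to 10 counts in the Pa-Tu-8902 libraries, a size that ran from 3.54 to 7.42 when each library was left out. CTPS1 differed by -0.70 and ASNS by -0.62, with the more positive response in MIA PaCa-2.

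Several of these calls were lost with effective lengths as offsets or in limma on log2(TPM + 0.5). With effective lengths as offsets, ASNS (-0.56, below the fold limit), PCCA (adjusted p = 0.0433), ALDH6A1 (adjusted p = 0.0120) and DBT (adjusted p = 0.322) were not called. In limma on log2(TPM + 0.5), BCAT1, GFPT2 (adjusted p = 0.0275), PCCA (0.0438), ALDH6A1 (0.0599), SLC7A11 (0.133), DBT (0.313), SIRT4 (0.0105), BCKDHB (0.0122) and AUH (0.0106) did not pass the adjusted p, and ASNS was at -0.55. ASNS also dropped below the fold limit without Pa-Tu-8902 untreated replicate 3 (-0.57), MIA PaCa-2 untreated replicate 2 (-0.57) or MIA PaCa-2 dox replicate 3 (-0.58), and SLC38A2 without MIA PaCa-2 untreated replicate 1 (0.58). The SIRT4 call was lost on leaving out 1 library in 8 of 12 cases. The cause of these losses was not tested.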

How the results depend on the processing

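The number of members called was within 1.5 times its value above under most alternatives, a limit that lets numbers this small rise by 1 or more. In Pa-Tu-8902, where the number above was 0, it stayed at 0 except without the fold limit. Without the fold limit the number became 2 in Pa-Tu-8902 and 4 for the difference between the lines. In MIA PaCa-2 it became 1 with effective lengths as offsets and 1 in limma on log2(TPM + 0.5), where BCAT1 was no longer called, and for the difference it became 1 in limma and 1 with 10 counts required in every library. The BCAT1 to BCAT2 shift in MIA PaCa-2 was -3.47 as a ratio of normalized counts and -1.32 with 0.5 TPM added, and ran from -2.55 to -1.82 when each library was left out. The GPT2 to GPT shift, which was not called, ran from -0.25 to 0.76 in Pa-Tu-8902. Values near 0 changed sign without a call. GLUD1 in MIA PaCa-2 was 0.00421 in DESeq2, 0.00421 with its size factors, 0.0561 in limma, 0.000553 with the replicate block and 0.00224 in 1 fit of 12 libraries, and ran from -0.0449 to 0.0430 when each library was left out. OAT in MIA PaCa-2 was 0.0391 in limma and ran from -0.0805 to 0.0179, the difference for OGDH ran from -0.0109 to 0.0868, and the difference for GOT1 was -0.0625 in limma. Same-numbered libraries did not deviate together (correlations from -0.103 to 0.0808 over 9 pairs). With the replicate block, the members called numbered 4 between untreated lines, 2 in MIA PaCa-2, 2 for the difference and 0 in Pa-Tu-8902. Shares of all genes called were formed for the main fit only. Counts of members called under the other fits, here and above, are therefore a description only. GLUL in MIA PaCa-2 was called in 1 fit of 12 libraries (0.59, adjusted p = 0.00825). The cause of these shifts was not tested. Depth limits GLS2, GPT and, in Pa-Tu-8902, BCAT1. Isoform shares below the count limit, and the BCAT1 to BCAT2 ratio outside MIA PaCa-2, were not run.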
